A study of Mus musculus with 16 samples.

Results

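The intercalated disc is the end-to-end contact between heart muscle cells, and 10 genes that encode its junction proteins were followed through the peak lists of a chromatin immunoprecipitation sequencing (ChIP-seq) series. They are Dsp, Jup, Pkp2, Dsg2 and Dsc2 of the desmosome, Cdh2, Ctnna3 and Vcl of the adherens junction, and Gja1 and Tjp1 of the gap junction and its scaffold. A peak was taken as a member where the authors' annotation assigned it to 1 of these symbols, which is the gene with the nearest transcription start. This gave 80 peaks of 56149 in all 8 lists. All 80 came from precipitation of H3K27Ac, the acetylation of lysine 27 of histone H3 found at promoters and enhancers in use. None was a peak of lamin A/C, a filament protein that lines the nucleus.

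The chromatin came from adult cardiomyocytes of 3-month-old mice, isolated by enzymatic perfusion of the heart. Mice with desmin (Des+/+) and mice without it (Des-/-) were used either unstressed (basal) or after swimming exercise (swim). Per the study's methods, both genotypes also carried a GFP transgene driven by the Myh6 promoter, which is active in heart muscle cells, and the chromatin of several animals was pooled for each library. Each combination of genotype, condition and antibody therefore had 1 library, the spread between animals or between libraries could not be measured, and no test between conditions was possible. Swimming and genotype were the 2 comparisons of the design, and they are given here as values with counting intervals.

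Desmosomes tie the intermediate filaments of neighbouring cells together: desmoplakin binds the filaments, which in heart muscle are made of desmin, and links them through plakoglobin and plakophilin to the desmosomal cadherins. Adherens junctions hold the actin filaments in the same way through N-cadherin and the catenins, and gap junctions pass ions and the electrical impulse between the cells. In the heart the desmosomal and adherens components mix in a shared zone of the disc, and loss of the desmosomal proteins is a known cause of arrhythmogenic cardiomyopathy.

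The DNA upstream of 4 of these genes and 1 stretch inside Dsp are shown first, because the H3K27Ac peaks described afterwards covered them to different extents in the 4 lists. They were read 5′ to 3′ on the strand of the gene from the RefSeq reference, build GRCm38.p6, which is the build of the peak lists. RefSeq promoter windows matched 6 of the 10 genes, namely Tjp1, Gja1, Ctnna3, Jup, Dsp and Vcl. Capitals mark matches on either strand. The letters searched were GATAAG for factors of the GATA family, GGAATG for those of the TEAD family, TGACTCA for AP-1, GGGCGG for the GC box, CACGTG for the E-box, CCAAT for the box of that name and TATAAA for the TATA box. The MEF2 site and the CArG box, the site of serum response factor, were searched by their standard patterns. A match is only a description of the letters.
Dsp, chr13:38151044-38151293, the 250 bases before the start: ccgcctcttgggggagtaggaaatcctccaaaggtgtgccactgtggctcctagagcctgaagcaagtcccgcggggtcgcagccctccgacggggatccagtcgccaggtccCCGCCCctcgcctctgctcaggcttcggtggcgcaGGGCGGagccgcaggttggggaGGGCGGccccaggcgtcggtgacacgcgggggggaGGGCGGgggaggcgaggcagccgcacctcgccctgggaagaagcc
Gja1, chr10:56377050-56377299, the 250 bases before the start: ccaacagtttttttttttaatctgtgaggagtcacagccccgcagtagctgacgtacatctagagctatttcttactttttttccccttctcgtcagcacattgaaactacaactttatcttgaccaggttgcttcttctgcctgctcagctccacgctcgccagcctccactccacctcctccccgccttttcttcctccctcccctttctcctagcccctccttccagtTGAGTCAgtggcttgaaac
Vcl, chr14:20929148-20929382, bases -250 to -16 before the start: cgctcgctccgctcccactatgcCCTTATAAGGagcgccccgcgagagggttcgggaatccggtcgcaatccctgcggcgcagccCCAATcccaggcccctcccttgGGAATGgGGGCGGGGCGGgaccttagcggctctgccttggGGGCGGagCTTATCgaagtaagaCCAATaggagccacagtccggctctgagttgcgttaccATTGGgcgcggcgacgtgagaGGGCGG
Ctnna3, chr10:63457261-63457509, bases -250 to -2 before an internal start: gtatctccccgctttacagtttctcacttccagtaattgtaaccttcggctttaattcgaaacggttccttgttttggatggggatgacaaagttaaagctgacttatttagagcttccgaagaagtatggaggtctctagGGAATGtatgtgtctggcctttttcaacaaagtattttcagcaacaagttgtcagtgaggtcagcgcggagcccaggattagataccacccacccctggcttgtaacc
Dsp intron, chr13:38163520-38163719, the 200 bases around the highest point of an intronic region: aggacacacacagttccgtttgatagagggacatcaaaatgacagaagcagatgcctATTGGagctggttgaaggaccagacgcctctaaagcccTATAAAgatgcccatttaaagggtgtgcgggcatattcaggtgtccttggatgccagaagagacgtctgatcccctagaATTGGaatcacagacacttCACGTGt

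The Dsp window held 4 GC boxes, 3 on the printed strand and 1 on the other, and its GC content of 72.4% was above that of 93.6% of the 32851 promoter windows of the same length. A GC box was found in 32.7% of those windows. The Gja1 window held no GC box and 1 AP-1 match, 19 to 13 bases before the start on the opposite strand, a sequence found in 4.46% of windows. The Vcl window held the most matches of the 4, with 4 GC boxes of which 2 overlapped by 1 base, 3 CCAAT boxes, 1 TEAD match, 1 GATA match and 1 CArG box. A CArG box was present in 1.47% of promoter windows, a GATA match in 6.55%, a TEAD match in 12.6% and a CCAAT box in 33.8%. The Ctnna3 window before the internal start held a single TEAD match. The Dsp intron window held 2 CCAAT boxes, 1 TATA box and 1 E-box. Among 6183 windows of the same length at the highest points of regions more than 3 kb from a start, 19.4% held a CCAAT box, 7.63% a TATA box and 3.02% an E-box.

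The H3K27Ac lists of basal cells held 15757 peaks for Des+/+ and 16638 for Des-/-, and those after swimming 11157 and 10407. Where 4 values follow each other below, they keep this order. The height of a peak is the largest number of overlapping reads in it, the lists start at a height of 15, and each peak carries the input height at the same place, so a gene without a listed peak was below that height and not necessarily without the mark. The mean input height was 5.48 reads in the Des-/- swim list and between 2.80 and 3.06 in the other 3, and at the junction gene peaks it was 4.69 against 2.43 to 2.67. Of 8 cardiomyocyte marker genes, all 8 had an H3K27Ac peak in both basal lists and in the swim list of Des+/+, and 6 had one in that of Des-/-, where Actc1 and Myl2 had none. Of 8 endothelial markers 7, 7, 6 and 5 had a peak in the lists in the same order (27, 24, 18 and 23 peaks, Vwf with none in any list), of 8 fibroblast markers 1, 3, 0 and 0, and of 8 leukocyte markers none. The part of endothelial chromatin in the junction gene peaks was not tested. Peaks were also absent from all 4 H3K27Ac lists for 8 genes of epithelial desmosomes and their keratin filaments, among them Dsg3, Dsc1, Dsc3 and Pkp1.

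All 10 junction genes had an H3K27Ac peak in basal Des+/+ cardiomyocytes and 9 had one in basal Des-/- cardiomyocytes. After swimming 9 had one in Des+/+ and 7 in Des-/-. The peaks numbered 24, 23, 20 and 13 in that order, or 0.152%, 0.138%, 0.179% and 0.125% of each list. With only the 10407 highest peaks of every list they numbered 13, 10, 18 and 13, so that the swim list then held more than the basal list in both genotypes. Dsg2 lacked a peak in every list but Des+/+ basal, and Dsc2 and Ctnna3 also lacked one in Des-/- swim. Over all protein-coding genes 39.0%, 41.2%, 29.8% and 29.4% had a peak in the 4 lists. Fewer cells carrying the mark and less of the mark per cell cannot be told apart in these libraries.

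**Figure D1:**
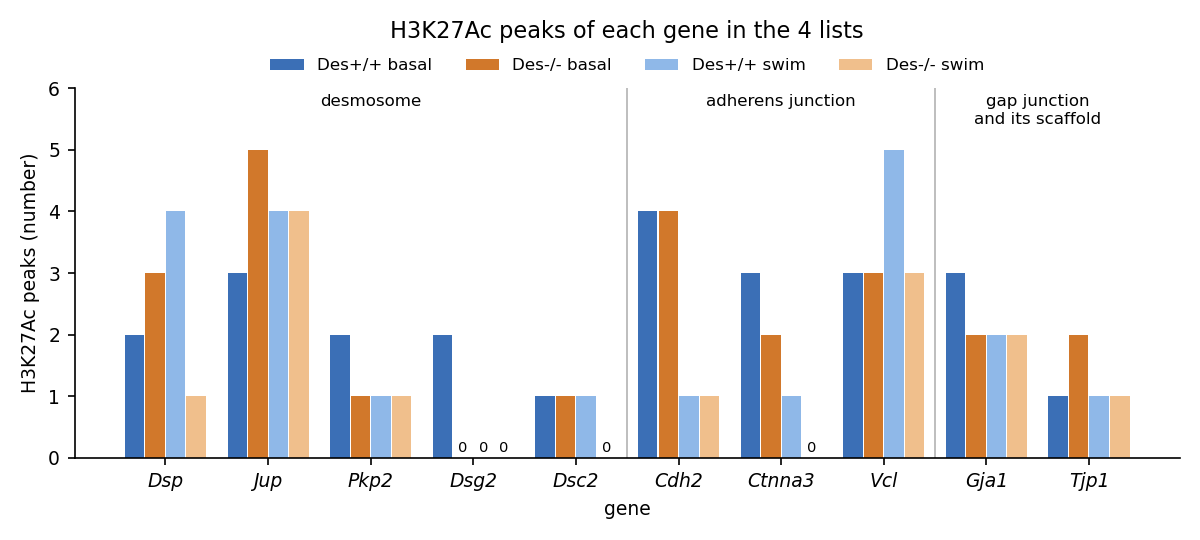
The bars give the number of H3K27Ac peaks assigned to each junction gene in the 4 lists, 1 library each, with a 0 where a gene had no peak. Dsp went from 2 peaks to 4 with swimming in Des+/+ and from 3 to 1 in Des-/-, while Dsg2 had peaks only in the Des+/+ basal list.

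By junction type, the 5 desmosomal genes had 10, 10, 10 and 6 peaks in the 4 lists. The 3 adherens junction genes had 10 and 9 peaks in the basal lists, 7 after swimming in Des+/+ and 4 in Des-/-. Gja1 and Tjp1 together had 4, 4, 3 and 3. Part of the desmosomal and adherens junction numbers comes from regions, merged as described below, that the caller cut into several peaks. The 3, 3, 5 and 3 Vcl peaks lay in 2 regions in every list. Jup had 3, 5, 4 and 4 peaks in 3, 4, 3 and 3 regions, and the 4 Dsp peaks of Des+/+ swim lay in 3. The gap junction pair carried the tallest peaks, with a median height of 43 reads in Des+/+ basal against 18 for the desmosomal and 19 for the adherens junction genes. Peaks of the 10 genes were low in general: 54.2%, 56.5%, 75% and 46.2% of them were under 20 reads in the 4 lists, against 36.8%, 36.7%, 45.7% and 34.4% of each whole list.

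Peaks of the 4 lists that overlapped by at least 1 base were merged into regions, which gave 29 junction gene regions of 18277 in all. Of the 29, 9 were found in all 4 lists (31.0%), 4 in 3 lists (13.8%), 6 in 2 (20.7%) and 10 in only 1 (34.5%). The shares over all regions were 37.7%, 15.9%, 18.1% and 28.2%. The 9 constant regions were the promoters of Dsp, Jup, Vcl, Gja1 and Tjp1, a region 2.4 kb into Gja1, the 3′ end of Vcl and a pair of intronic regions of Jup. The Gja1 region at 2.4 kb was also annotated as promoter, with peaks 0.667 to 0.814 kb from an annotated start. The Jup pair, annotated as intronic, had peaks within 3 kb of a start by the deposited distance. No region of Pkp2, Dsg2, Dsc2, Cdh2 or Ctnna3 was present in all 4 lists. Counting each region once, the numbers per list were 23, 21, 15 and 11, since the caller had cut some regions into neighbouring peaks.

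**Figure D2:**
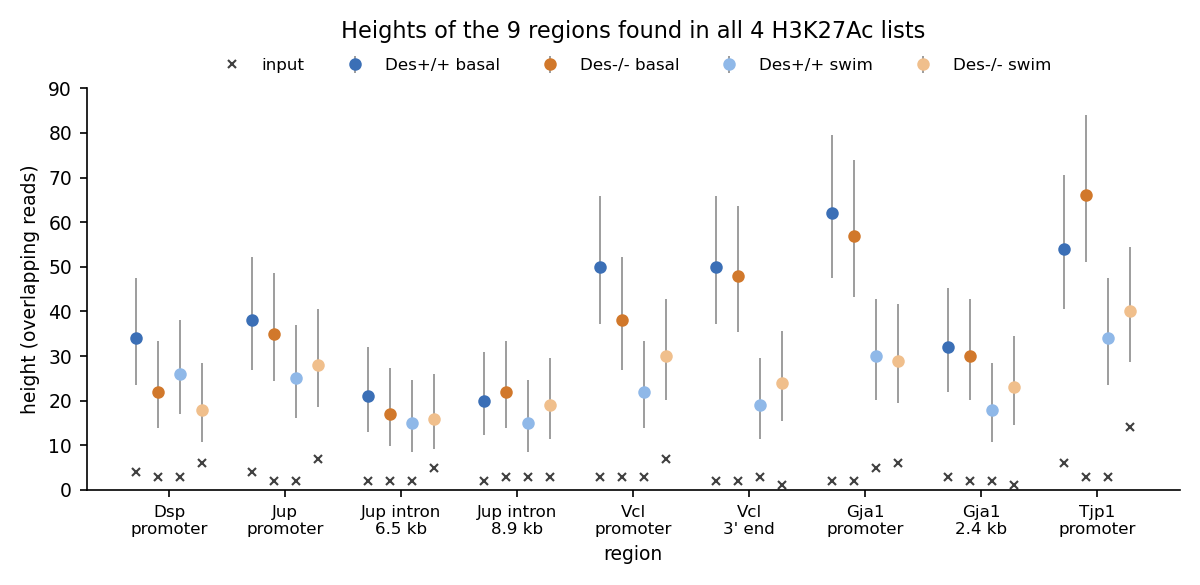
Points are heights in overlapping reads of the 9 junction gene regions present in all 4 lists, with exact Poisson 95% intervals (counting error only), and crosses are the input heights at the same places. The Gja1 promoter stands at 62 and 57 reads in the basal lists and at 30 and 29 in the swim lists, and the Tjp1 promoter has the highest input, 14 reads, in Des-/- swim.

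Desmoplakin, encoded by Dsp, is the protein that attaches desmin to the desmosome. Its promoter region at chr13:38150715-38152693 covered the start of the gene and had a height of 34 reads in basal Des+/+ cells, 22 in basal Des-/- cells, 26 in swum Des+/+ and 18 in swum Des-/-, over inputs of 4, 3, 3 and 6. Both Des-/- libraries were lower than both Des+/+ libraries. The Des-/- to Des+/+ ratio was 0.647 in basal cells (95% counting interval 0.361 to 1.14) and 0.692 after swimming (0.358 to 1.31), so both intervals include 1. Relative to the median height of the 6899 regions present in all 4 lists, the ratios were 0.596 and 0.593. The highest point lay 0.223 to 0.487 kb after the gene start in all 4 lists.

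The Des+/+ basal peak of the Dsp promoter was 1905 bases wide and began 579 bases before the start, so it covered all 250 bases of the printed window with its 4 GC boxes. In Des-/- basal 33 of these bases lay inside the peak, and in both swim lists none did. The widths there were 1433, 1335 and 1244 bases. The Des+/+ basal peak was also the tallest of the 4, at 34 reads, and the part of height in where a peak ends was not tested. Here and in the other printed windows, bases outside a peak were not necessarily without the mark. The region overlapped Gm10129, a gene model of uncertain type in the GENCODE M21 annotation that starts within it, while the nearest start of another protein-coding gene, Snrnp48, was 52.2 kb away.

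A further pair of Dsp regions lay 10.7 to 13.8 kb after the start. The intronic one (chr13:38162013-38164063) was listed in Des-/- basal at 16 reads over an input of 1 and in Des+/+ swim at 18 over 4, and was not listed in Des+/+ basal or Des-/- swim. The other (chr13:38164222-38165123), annotated as exonic though its highest points lay outside exons, had 17, 17 and 15 reads in the first 3 lists and was not listed in the Des-/- swim list. In the Des+/+ swim list the intronic region was cut into 2 peaks only 6 bases apart. Dsp thus had 2, 3, 4 and 1 peaks, or 2, 3, 3 and 1 with each region counted once. All of these intragenic heights were within 3 reads of the lowest height the lists hold.

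**Figure D3:**
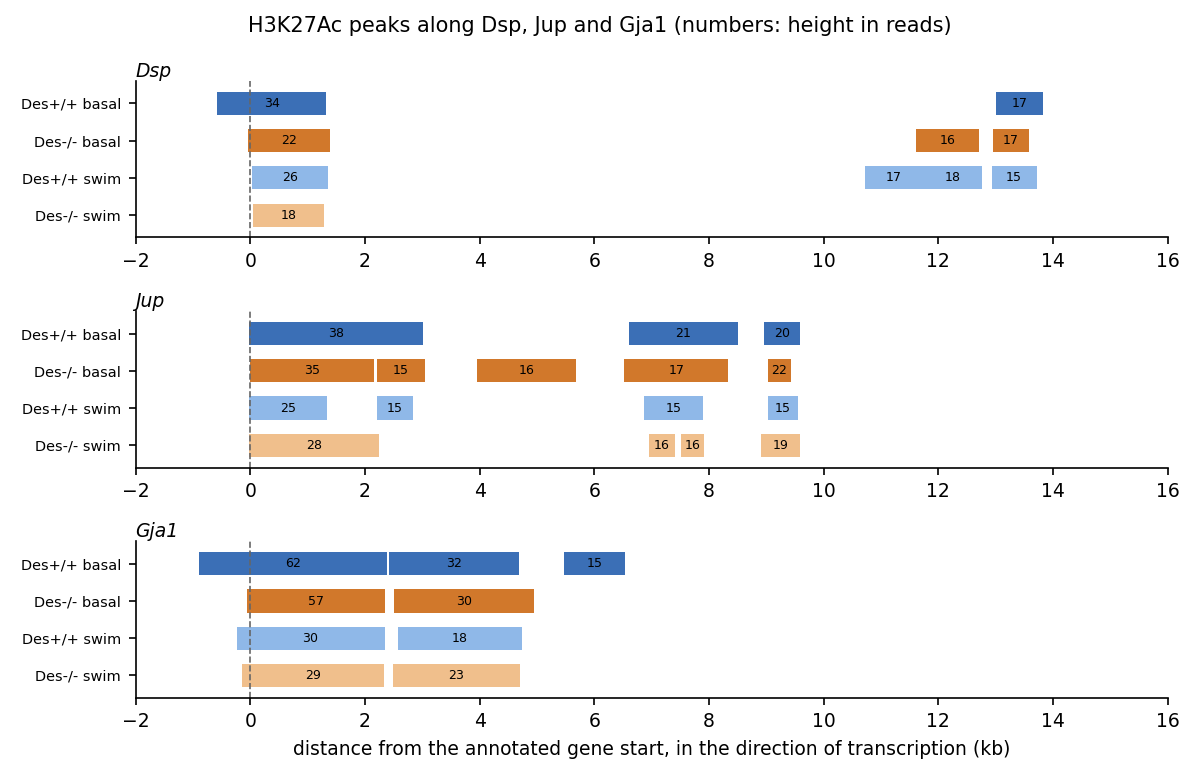
Bars are the H3K27Ac peaks of Dsp, Jup and Gja1 along the distance from the gene start in kb, 1 row for each list, with the height in reads on each bar and the start as a dashed line. At least 1 Dsp region beyond 10 kb appears in every list except Des-/- swim, while the Jup regions at 6.5 and 8.9 kb appear in all 4.

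Plakoglobin, encoded by Jup, sits in both the desmosome and the adherens junction. Its promoter region (chr11:100394707-100397782) began 19 bases before the start and ran 3.06 kb into the gene. It had heights of 38 and 35 reads in basal Des+/+ and Des-/- cells and of 25 and 28 after swimming, over inputs of 4, 2, 2 and 7. The basal libraries were the higher ones in both genotypes. The Des-/- to Des+/+ ratio was 0.921 in basal cells (0.565 to 1.5) and 1.12 after swimming (0.630 to 2.00).

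Inside Jup, the region at 6.5 to 8.5 kb had 21, 17, 15 and 16 reads and the region at 8.9 to 9.6 kb had 20, 22, 15 and 19 in the same order of lists. Both were annotated as intronic and both were present in every list, at heights that overlap between the genotypes. Another Jup region at 4.0 to 5.7 kb was listed only in Des-/- basal, at 16 reads. Jup had 3, 5, 4 and 4 peaks, and 3, 4, 3 and 3 with each region counted once, because its promoter or intronic region was cut into 2 peaks in every list but Des+/+ basal.

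Plakophilin-2, encoded by Pkp2, joins desmoplakin to the cadherins. None of its 3 regions exceeded 17 reads. The promoter region (chr16:16213317-16214248) had 16 reads in Des+/+ basal and 15 in Des+/+ swim and was not listed in either Des-/- library. An intronic region 2.2 kb into the gene was listed in Des+/+ basal and Des-/- swim, at 15 reads each, and another at 11.5 kb only in Des-/- basal, at 17. Every listed height was within 2 reads of the lowest height in the lists, so presence and absence here turn on a few reads. Another 4 peaks over the body of Pkp2, 42.4 to 43.6 kb after its start, were assigned in the lists to the pseudogene Gm5481 and were not counted: 2 in Des+/+ basal at 19 reads each, 1 in Des-/- basal at 22 and 1 in Des+/+ swim at 20.

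Desmoglein-2 (Dsg2) and desmocollin-2 (Dsc2) are the desmosomal cadherins of heart muscle, and both genes lie on chromosome 18. Dsg2 had 2 promoter peaks in Des+/+ basal, at 15 reads over an input of 3 and at 17 over 2, and no peak in the other 3 lists. Of all genes with a peak, 21 others had this same series of peak numbers. Dsc2 had a single promoter region with 19 and 17 reads in basal Des+/+ and Des-/- cells and 18 in swum Des+/+, over inputs of 2, 2 and 3. It was not listed in Des-/- swim, and 536 other genes shared its peak numbers of 1, 1, 1 and 0. The listed heights of both genes differed by less than the counting error, since 15 reads have an exact Poisson interval of 8.40 to 24.7.

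N-cadherin, encoded by Cdh2, is the classical cadherin of the disc. It had 4 peaks in each basal list and 1 in each swim list, a series shared by 3 other genes. The region across its start had 18 and 15 reads in basal Des+/+ and Des-/- cells and 15 in swum Des-/-, over inputs of 2, 4 and 4, and the neighbouring promoter region had 19 and 20 reads in the basal lists alone. The 4 intronic regions lay 68 to 96 kb after the start. The nearest of them, 68.3 kb in, was listed in Des-/- basal at 17 reads and in Des+/+ swim at 16, and each of the other 3 was listed in a single basal library at 15 to 19. Those 3 lay close together but did not overlap.

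Alpha-T-catenin, encoded by Ctnna3, links cadherins to actin and is largely a protein of heart and testis. Its peaks numbered 3, 2, 1 and 0 in the 4 lists. The region at the outermost start was listed in Des+/+ basal alone, at 15 reads. The region at the internal start whose upstream bases are printed above (chr10:63456732-63458607) had 21 reads in Des+/+ basal and 15 in Des-/- basal over inputs of 2 and was not listed in either swim library. It covered all 249 printed bases in Des+/+ basal and 215 of them in Des-/- basal. An intronic region 45.8 kb after the outermost start had 17, 15 and 17 reads in the first 3 lists and was not listed in Des-/- swim. With 22 other genes sharing its peak numbers, the stepwise series was not unique to Ctnna3.

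Vinculin, encoded by Vcl, couples the catenins to actin. Its promoter region (chr14:20928527-20930814) had 50 and 38 reads in basal Des+/+ and Des-/- cells and 22 and 30 in swum ones, over inputs of 3, 3, 3 and 7. The swim to basal ratio was 0.440 in Des+/+ (0.254 to 0.740) and 0.789 in Des-/- (0.472 to 1.31). The interval excluded 1 in Des+/+ and included it in Des-/-, and the difference between the genotypes was not tested. Over all regions in both lists the median ratio was 0.738 and 0.75, and each interval included its genotype's median. Of the 235 printed bases before the start, 44 and 235 lay inside a peak in basal Des+/+ and Des-/- cells. In the swum ones the numbers were 227 and 12. The caller had cut the Des+/+ basal region into 2 peaks, and the gap of 191 bases between them lay wholly inside the printed window. The peaks reached up to 704 and 871 bases before the start in basal Des+/+ and Des-/- cells, and 835 and 27 after swimming. The Des-/- to Des+/+ ratio was 0.760 in basal cells (0.485 to 1.18). After swimming Des+/+ was the lower genotype, with a Des+/+ to Des-/- ratio of 0.733 (0.403 to 1.31). Taken as enrichment over input, with inputs of 3 and 7 reads, Des+/+ was the higher genotype.

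The other Vcl region lay at the 3′ end of the gene, 102 to 105 kb after its start (chr14:21031249-21034164), was annotated as 3′ UTR, ran past the end of the gene and overlapped Ap3m1. Its heights were 50, 48, 19 and 24 reads over inputs of 2, 2, 3 and 1. Both swim libraries were below both basal libraries, with swim to basal ratios of 0.380 (0.212 to 0.656) in Des+/+ and 0.5 (0.293 to 0.832) in Des-/-. The Des+/+ interval lay below the all-region median of 0.738, and the Des-/- interval included that of 0.75. Peak number did not follow height at Vcl, which had 3, 3, 5 and 3 peaks but 2 regions in every list. In Des+/+ swim the promoter region was cut into 3 peaks with gaps of 8 and 122 bases. The lengths covered by its peaks were 3.81, 4.27, 4.71 and 2.84 kb.

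Connexin 43, encoded by Gja1, is the main gap junction protein of the working ventricle, and its promoter had the tallest junction gene peak in Des+/+ basal. The region (chr10:56376444-56379708) had 62 and 57 reads in basal Des+/+ and Des-/- cells and 30 and 29 in swum ones, over inputs of 2, 2, 5 and 6. The basal and swim heights did not overlap, while within each condition the genotypes were within 5 reads of each other. The swim to basal ratio was 0.484 in Des+/+ (0.302 to 0.760) and 0.509 in Des-/- (0.314 to 0.809). Both intervals included the all-region swim to basal medians of 0.738 and 0.75. The Des-/- to Des+/+ ratio was 0.919 in basal cells (0.630 to 1.34) and 0.967 after swimming (0.560 to 1.67). The Gja1 promoter height exceeded that of 94.2% and 91.0% of the peaks in the basal lists and of 78.6% and 66.9% in the swim lists, in the order Des+/+ and Des-/-. The swim lists were the shorter ones.

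The highest point of the Gja1 promoter region lay 1.33 to 1.49 kb after the gene start in all 4 lists. The printed bases before the outermost start were inside the peak in full in Des+/+ basal, 209 of them in Des+/+ swim, 108 in Des-/- swim and 22 in Des-/- basal. The Des+/+ basal peak was the widest of the 4 at 3265 bases, against 2412 to 2584 in the others. The region 2.4 kb into the gene had 32, 30, 18 and 23 reads. An intronic region at 5.5 kb was listed in Des+/+ basal alone, at 15 reads over an input of 2.

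Zonula occludens-1, encoded by Tjp1, is the scaffold that organises the edge of the gap junction plaque and is found in many cell types. Its promoter region (chr7:65370002-65372188) lay at an internal start 156 to 158 kb after the outermost start in the GENCODE annotation. The heights were 54 and 66 reads in basal Des+/+ and Des-/- cells and 34 and 40 in swum ones, over inputs of 6, 3, 3 and 14. Des-/- was the higher genotype in both conditions, but the ratios of 1.22 (0.840 to 1.78) and 1.18 (0.726 to 1.92) both had intervals that include 1. After swimming the input was 14 reads in Des-/- against 3 in Des+/+. Taken as enrichment over input, Des-/- was then the lower genotype. The swim to basal ratio was 0.630 (0.397 to 0.985) in Des+/+ and 0.606 (0.399 to 0.911) in Des-/-. Both intervals included the all-region medians of 0.738 and 0.75. With 66 reads the Tjp1 promoter had the tallest junction gene peak of any list. A Tjp1 intronic region, at 16 reads, was listed in Des-/- basal only.

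Between the genotypes in basal cells, 8 of the 29 junction gene regions found in either list (27.6%) were listed only in Des+/+ and 6 (20.7%) only in Des-/-, against 12.6% and 18.2% of all such regions. The 8 had heights of 15 to 19 reads and the 6 of 16 to 18. Of the 15 regions in both lists, 11 were lower in Des-/-, 3 were higher and 1 was equal. The median ratio was 0.919 against 1.06 over all 12052 regions in both lists. At least a 1.5-fold difference was seen at 1 of the 15, the Dsp promoter, higher in Des+/+, where 1.9% of all regions were, and at none in the other direction, where 5.42% were. No counting interval of the 15 ratios excluded 1.

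After swimming, 6 of 17 regions (35.3%) were listed only in Des+/+ and 2 (11.8%) only in Des-/-, against 21.8% and 16.7% of all regions. The heights were 15 to 18 and 15 reads. Of the 9 regions in both lists, 7 were higher in Des-/- and 2 lower, with a median ratio of 1.18 against 1.11 over all regions. The lower ones were the promoters of Dsp and Gja1. None of the 9 passed a 1.5-fold difference in either direction, against 9.2% of all regions higher in Des-/- and 1.87% higher in Des+/+. The input heights were higher in the Des-/- swim library. Taken as enrichment over input, the median log2 ratio of the 9 regions turned from 0.23 to -0.57. Relative to each list's median height over the 6899 regions present in all 4 lists it was 0.012, with 5 of the 9 higher in Des-/- and 4 lower. The direction after swimming thus depends on the input, and the size of the difference on the scaling.

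**Figure D4:**
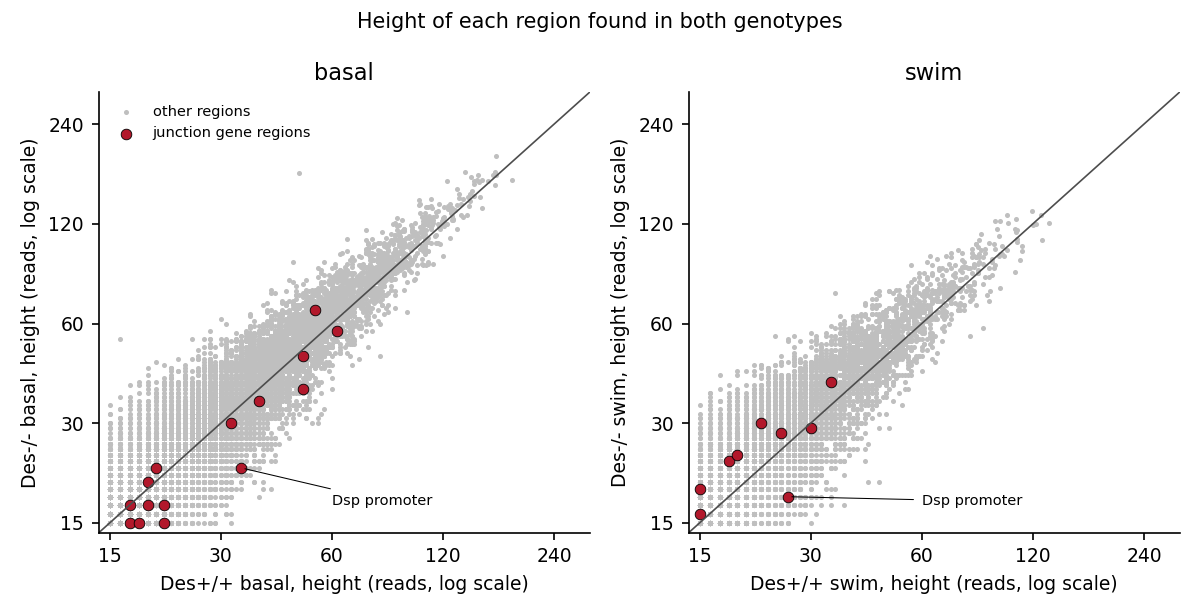
Each point is a region found in both genotypes, with its height in reads in Des+/+ on the x axis and in Des-/- on the y axis (log scales, line of equal height), for basal cells on the left and swimming on the right. Junction gene regions are filled, some at the same position, and the Dsp promoter lies below the line in both panels at 34 and 22 reads and at 26 and 18 reads.

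Between swimming and basal in Des+/+, 10 of 25 junction gene regions (40%) were listed only in basal cells and 2 (8%) only after swimming, against 36.4% and 5.58% of all regions. The only 2 regions gained were the Dsp intronic region and the Cdh2 intronic region at 68.3 kb, at 18 and 16 reads. Of the 13 regions in both lists, 12 were lower after swimming and 1, in an intron of Ctnna3, was equal. The median ratio was 0.714 against 0.738 over all regions. A height at least 1.5 times higher in basal cells was found at 6 of the 13 (46.2%), namely the promoters of Gja1, Jup, Tjp1 and Vcl, the Gja1 region at 2.4 kb and the Vcl 3′ end, against 35% of all regions. The basal to swim ratio was 1.52 (0.894 to 2.63) at the Jup promoter and 1.78 (0.968 to 3.36) at the Gja1 region at 2.4 kb. Both intervals include 1, unlike those of the other regions named. A height at least 1.5 times higher after swimming was found at none, against 0.194%.

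In Des-/-, 11 of 22 regions (50%) were listed only in basal cells and 1 (4.55%), in an intron of Pkp2, only after swimming, against 42.9% and 3.7% of all regions. Of the 10 in both lists, 9 were lower after swimming and 1, at the start of Cdh2, was equal, with a median ratio of 0.795 against 0.75 over all regions. At least 1.5 times higher in basal cells were 3 of the 10 (30%), the Gja1 and Tjp1 promoters and the Vcl 3′ end, against 30.5% of all regions, and none was higher after swimming by as much, against 0.273%. The lower heights after swimming were thus shared with regions over the whole genome in both genotypes. The comparisons share their libraries in pairs, so their values are not independent of each other.

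**Figure D5:**
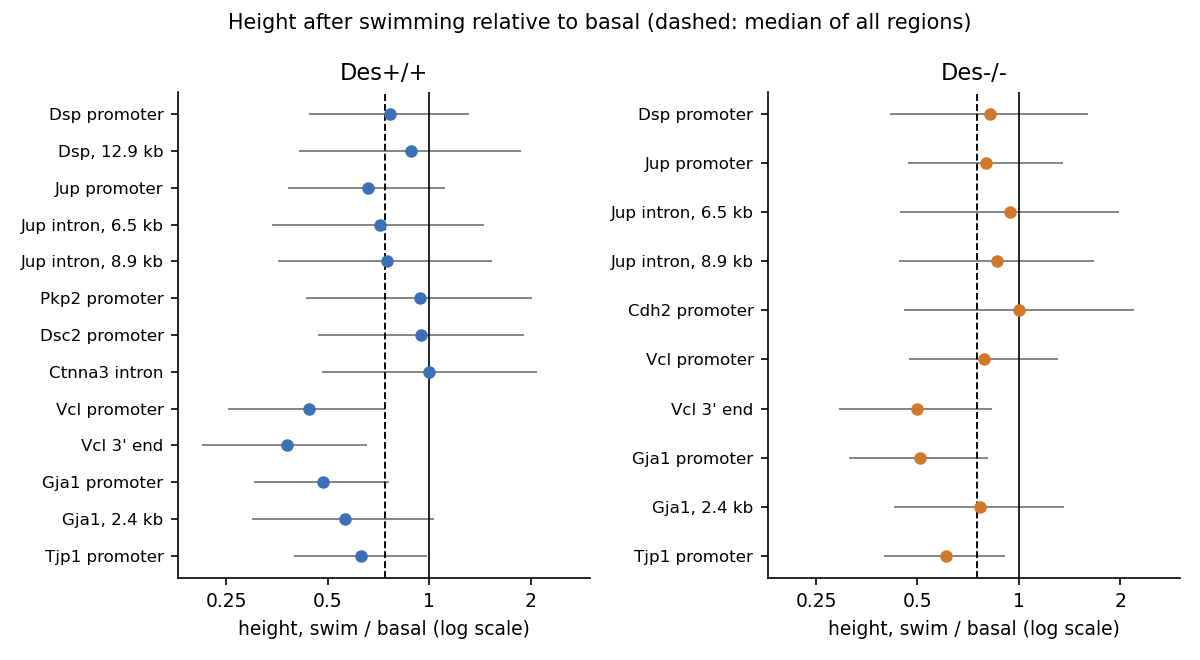
Points are the ratio of height after swimming to height in basal cells (log scale) for each junction gene region in both lists, Des+/+ on the left and Des-/- on the right, with exact 95% counting intervals, a solid line at 1 and a dashed line at the median of all regions (0.738 and 0.75). The lowest ratios are 0.380 at the Vcl 3′ end, 0.440 at the Vcl promoter and 0.484 at the Gja1 promoter in Des+/+, and 0.5 at the Vcl 3′ end and 0.509 at the Gja1 promoter in Des-/-.

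To take the lower heights of the swim lists into account, heights were divided by each list's median over the 6899 regions present in all 4 lists, which was 35, 38, 24 and 28 reads. The median log2 ratio of swim to basal over the 13 and 10 junction gene regions in both lists, -0.49 in Des+/+ and -0.33 in Des-/-, then became 0.059 and 0.11. Over the 9 junction gene regions in all 4 lists the median scaled ratio was 0.918 in Des+/+ and 1.07 in Des-/-, so in Des+/+ its side of 1 depends on which regions are taken. The Gja1 promoter was still lower after swimming, going from 1.77 times the median to 1.25 in Des+/+ and from 1.5 to 1.04 in Des-/-. The Vcl 3′ end went from 1.43 to 0.792 and from 1.26 to 0.857. The Dsp promoter went the other way, from 0.971 to 1.08 in Des+/+ and from 0.579 to 0.643 in Des-/-. Its unscaled swim to basal ratios had counting intervals of 0.441 to 1.31 and 0.414 to 1.60, and both include 1. No interval was computed for the scaled ratios. The intronic Jup regions present in all 4 lists also rose in both genotypes. Their scaled swim to basal ratios were 1.04 and 1.09 in Des+/+ and 1.28 and 1.17 in Des-/-. The scaled swim to basal ratios of the 9 regions ran from 0.554 to 1.12 in Des+/+, with 6 of 9 below 1, and from 0.679 to 1.28 in Des-/-, with 3 of 9 below 1.

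By peak number, 3 of the 10 genes had more peaks in Des-/- than in Des+/+ basal cells (Dsp, Jup and Tjp1), 4 had fewer and 3 had the same number. Over the 10611 genes with a peak in either list 24.5% had more and 18.0% fewer. After swimming none had more in Des-/- and 4 had fewer (Dsp, Dsc2, Ctnna3 and Vcl), against 22.7% and 27.4% of genes. Swimming went with more peaks at 3 genes (Dsp, Jup and Vcl) and fewer at 5 in Des+/+, and with fewer at 6 and more at none in Des-/-. Over all genes 10.3% had more and 44.1% fewer in Des+/+, and 8.48% more and 49.7% fewer in Des-/-. With each region counted once, swimming in Des+/+ took Dsp from 2 to 3, while Jup stayed at 3 and Vcl at 2. Vcl also had 2 regions in both swim lists, so its lower peak number in Des-/- swim was not a lower number of regions. Cardiomyocyte markers had 33, 27, 24 and 12 peaks in the 4 lists, so their number was also lowest in Des-/- swim, with 7 of 8 genes below Des+/+ swim, and its part in the junction gene counts was not tested.

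A wider list of 26 further genes of the intercalated disc had 69, 72, 44 and 34 peaks in the 4 lists, and 22, 23, 19 and 18 of the genes had a peak. Between genotypes, 7 genes had more peaks in Des-/- and 8 fewer in basal cells, and 4 had more and 8 fewer after swimming. With swimming, 2 had more peaks and 13 fewer in Des+/+, and 1 had more and 16 fewer in Des-/-. The gap junction genes Gja5 and Gja3 and the adhesion receptor gene Cxadr had no peak in any list.

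Of the 6 genes of this list with the largest summed genotype difference in peak number, 5 are described. Actn2, which encodes the alpha-actinin of the Z-disc, had 8, 6, 4 and 0 peaks, with heights up to 25, 29 and 24 reads in the first 3 lists. Lmo7 had 7, 10, 4 and 2 peaks and Sorbs2 had 2, 4, 2 and 0. Svil, which encodes the actin-binding protein supervillin, had 7, 6, 6 and 4. Ctnna1, which encodes alpha-E-catenin, had 7, 7, 3 and 1 peaks, although its highest peak stood at 82, 71, 45 and 71 reads. As at Vcl, the number and the height of the peaks did not move together there.

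Lamin A/C peaks were few, at 188, 831, 635 and 536 in the 4 lists of that antibody, and none was assigned to a junction gene or overlapped the body of one. A count of 0 in these lists allows a share of up to 1.60%, 0.361%, 0.472% and 0.560% of the peaks. Over all protein-coding genes 0.562%, 1.44%, 1.42% and 0.995% had a lamin A/C peak. These are shares of genes and cannot be set against the limits, which are shares of peaks. At gene shares this low, most sets of 10 genes would have no lamin A/C peak. The nearest lamin A/C peak to any junction gene was 6.95 kb from Jup in Des+/+ swim, in an exon of Hap1, with 8 reads over an input of 2, and 8 is the lowest height in the lamin lists. In the other lists the nearest peak to Jup was 652 to 2705 kb away. The wider list had no lamin A/C peak in any library either, while the cardiomyocyte markers had 0, 3, 10 and 1. The lists thus hold no lamin A/C value for these genes in either genotype.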

How the data were processed

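Reads of 8 precipitated libraries and 8 inputs were aligned by the authors to GRCm38 (mm10) with Bowtie2 2.4.4 at default options, sorted with SAMtools 1.13, and each precipitated library was searched for peaks on its own, relative to its input, by a laboratory script. The deposited signal values are the height of each peak in overlapping reads and the input height at the same place, as deposited by the authors without a stated scaling to depth, and the deposited fold change is the ratio of both heights after adding 1 to each, which held for 100% of peaks. The distance to the nearest transcription start, a signed score in bases, and the gene symbol were added by the authors with ChIPseeker 1.36.0. The authors' p-value and FDR columns were not used. Per the labels, about 25000000 single-end reads were generated for each sample. Removal of duplicate reads, read extension and the reads left in each library after alignment are not given in the sources used here, so heights were not scaled to depth and intervals cover counting error only.

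From these files, H3K27Ac peaks of the 4 lists that overlapped by at least 1 base were merged into regions. The highest peak of a list stood for its region. Height ratios carry exact conditional binomial 95% intervals, single heights exact Poisson intervals, and the limit for a count of 0 is 3 peaks of the list. A promoter peak is one within 3 kb of a start by the deposited distance. With 1 library a group no test was run. Region merging and ratios were tested on simulated peaks (Python 3.11.15, pandas 2.3.3, SciPy 1.17.1). Gene starts, exons and neighbours came from GENCODE M21 and sequences from RefSeq, both on GRCm38. The 10 genes, the wider list, the marker lists and the rule for naming all 10 genes and the 6 genes of the wider list were chosen with earlier results of these data known. Of these 6 genes, 1 is not reported here. The marker lists describe the libraries only. Alternatives were promoter peaks only, a minimum height of 20, peaks over gene bodies, equal numbers of peaks, other rules for merging, heights over the list's median, and enrichment over input.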

Additional observations from a re-analysis of the deposited data

Results flagged for a closer look

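Swimming went with opposite changes in H3K27Ac peak number in the genotypes at 2 of the 10 junction genes. At Dsp the number changed by 2 in Des+/+ (from 2 to 4 peaks) and by -2 in Des-/- (from 3 to 1). At Jup it changed by 1 in Des+/+ (from 3 to 4) and by -1 in Des-/- (from 5 to 4). The differences were not tested, since each number comes from 1 library. Of 10927 genes with a peak in any H3K27Ac list, 3.45% rose in Des+/+ and fell in Des-/-, and 2.08% did the reverse. Genes with a peak had 1.67, 1.67, 1.56 and 1.48 peaks each in the 4 lists, and junction genes with a peak 2.4, 2.56, 2.22 and 1.86. These shares are therefore over genes with fewer peaks to gain or lose, and no share was taken over genes with as many. With each region counted once, a count added after the data were seen, Dsp went from 2 to 3 regions and from 3 to 1, and Jup stayed at 3 in Des+/+ and went from 4 to 3 in Des-/-. The Dsp regions concerned had heights of 15 to 18 reads, close to the lowest listed height of 15, and the median input height at junction gene peaks was 4 reads in the Des-/- swim library against 2 to 2.5 in the others, whose part was not tested.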

How the results depend on the processing

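The junction gene counts rest on low peaks. At a minimum height of 20 reads the 24, 23, 20 and 13 peaks became 11, 10, 5 and 7, and the order of the swim lists turned. With the 10407 highest peaks of every list they became 13, 10, 18 and 13, so that the swim lists held more than the basal lists, and with promoter peaks only the Des-/- basal and Des+/+ swim lists moved, to 13 and 12. With equal numbers of peaks, regions listed in 1 genotype of the basal pair went from 8 and 6 to 4 and 1. In the swim pairs, regions listed only in basal cells went from 10 to 3 in Des+/+ and from 11 to 1 in Des-/-, and those only after swimming from 2 to 6 and from 1 to 3. Merging peaks within 500 bases left 1 region listed only after swimming in Des+/+, and requiring an overlap of 0.5 of the shorter peak gave 2 such peaks in Des-/-.

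The median log2 ratio of swim to basal heights, -0.49 in Des+/+ and -0.33 in Des-/-, turned to 0.059 and 0.11 with heights divided by the list's median, and became -1.08 in Des-/- as enrichment over input. The median log2 ratio of Des-/- to Des+/+ after swimming, 0.23, turned to -0.57 as enrichment over input, where the Des-/- swim input was the higher one. With heights divided by the list's median it became 0.012. The swim to basal sign changes came from the division by list medians, which were 35 and 24 reads in Des+/+ basal and swim and 38 and 28 in Des-/-. They also rest on the lowest listed height of 15 reads. A region near that height in basal cells could not have a scaled ratio below 1 and stay listed. The cause of the lower swim medians and of the higher Des-/- swim input was not tested. The basal genotype median of -0.12 kept its sign in all 3 alternatives. The lamin A/C count of 0 held over gene bodies and at a minimum height of 10. No library could be left out and no paired analysis was possible because each group had 1 library and the labels give no replicate numbers. Each sample had about 25000000 reads per the labels, but the aligned reads of each library are unknown, so a lower height after swimming cannot be told apart from a shallower or less enriched library.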
